A study of Mus musculus with 6 samples.

Results

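Tyrobp, Fcer1g, Csf1r, Cx3cr1, Fcgr2b and Apbb1ip are 6 mouse genes for receptors and signalling adaptors of microglia, the resident macrophages of the spinal cord. They were taken by symbol, using array rows whose annotation gives exactly 1 gene symbol. They are 6 of 8251 genes so annotated, and 8 of 12422 probe sets carry their names. The probe set with the highest mean stands for its gene. The series holds 6 Affymetrix arrays of spinal cord RNA, 1 array per genotype and age. The G93A-SOD1 mice carry the G93A form of superoxide dismutase, known from familial amyotrophic lateral sclerosis, and their strain is labelled B6SJL-G93A-SOD1 at 75 days and B6SJL-G93A-SOD1H at 110 days. The WT-SOD1 mice carry wild-type SOD1, with a strain label that names B6SJL at 75 days and none at 110 days. The nontransgenic mice are labelled B6SJL and as normal mice. Each genotype was sampled at 75 and 110 days, and each array received RNA pooled from 4 cords, so animals of a group cannot be told apart. The sources used here give neither promoter nor copy number of the transgenes. By the submitters' account, G93A-SOD1 mice were presymptomatic at the younger age and had tremor with partial paralysis at the older, while WT-SOD1 mice showed no disease at either. The WT-SOD1 and nontransgenic arrays are therefore called disease-free.

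Microglial receptors without a signalling tail of their own pair with small membrane adaptors that carry an immunoreceptor tyrosine-based activation motif, or ITAM. Once phosphorylated by Src family kinases, the motif recruits the kinase Syk. Tyrobp, also called DAP12, is the adaptor of Trem2 and related receptors, and Fcer1g is the common gamma chain of activating Fc receptors. Fcgr2b is an Fc receptor with the opposite, inhibitory motif (ITIM). Csf1r is the receptor tyrosine kinase for Csf1 and Il34 on which microglial survival depends, and Cx3cr1 is the receptor for the neuronal chemokine fractalkine. Apbb1ip, also called RIAM, is an adaptor that links the small GTPase Rap1 to talin and integrin activation in blood cells.

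Promoter sequences are shown for 3 members, so that Apbb1ip and Fcgr2b, which read highest on the G93A-SOD1 array at 110 days, stand beside Cx3cr1, which did not. Promoters of Tyrobp and Csf1r, which also read highest on that array, were not searched. They are from RefSeq (GRCm38.p6) and run from 250 bases before to 50 bases after the gene start, 5′ to 3′ on the gene's strand. The search covered both strands for GAGGAA, the core bound by the myeloid factor PU.1, for TGANTCA of AP-1, and for the ETS-IRF composite motif. Matches are in capitals.
Apbb1ip (chr2:22774077-22774376, plus strand): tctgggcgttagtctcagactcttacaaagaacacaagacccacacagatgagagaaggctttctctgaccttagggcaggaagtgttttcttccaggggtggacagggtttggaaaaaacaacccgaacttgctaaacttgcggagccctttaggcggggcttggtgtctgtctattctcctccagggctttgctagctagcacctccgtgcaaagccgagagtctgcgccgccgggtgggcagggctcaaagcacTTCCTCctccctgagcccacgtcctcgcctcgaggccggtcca
Fcgr2b (chr1:170976022-170976321, minus strand): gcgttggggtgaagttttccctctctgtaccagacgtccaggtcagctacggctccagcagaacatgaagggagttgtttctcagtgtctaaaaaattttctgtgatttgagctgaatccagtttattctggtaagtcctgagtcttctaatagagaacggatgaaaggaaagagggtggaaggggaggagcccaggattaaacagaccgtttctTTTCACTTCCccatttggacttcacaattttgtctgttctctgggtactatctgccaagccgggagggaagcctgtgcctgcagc
Cx3cr1 (chr9:120068247-120068546, minus strand): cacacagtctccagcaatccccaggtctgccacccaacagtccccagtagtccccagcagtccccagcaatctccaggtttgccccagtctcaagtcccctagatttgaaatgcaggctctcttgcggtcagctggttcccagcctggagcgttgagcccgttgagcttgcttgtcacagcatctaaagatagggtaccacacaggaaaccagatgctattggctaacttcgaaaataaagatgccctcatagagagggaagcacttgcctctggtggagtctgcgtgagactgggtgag
Apbb1ip holds 1 GAGGAA on the reverse strand, at bases 258 to 263 of the window. Fcgr2b holds 1 ETS-IRF composite on the reverse strand, at bases 216 to 225, and these motifs do not overlap in the windows shown. The Cx3cr1 window, like that of Fcer1g, holds none of the 3 motifs as spelled. Among 32851 promoter windows of the same length, 28.3% hold GAGGAA, 7.81% TGANTCA and 2.72% the ETS-IRF composite. A match describes the letters and is no evidence of a bound site.

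The arrays were close in overall level, with medians of 77.7 to 80.9 intensity units. They differed in 2 other respects. The mean intensity over bacterial spike-in controls was 351 and 405 units on the 75-day and 110-day G93A-SOD1 arrays, 374 and 834 on those of WT-SOD1, and 631 and 457 on the nontransgenic arrays. The cerebellar granule cell marker Gabra6 read 25.2 and 21.3 in G93A-SOD1, 44.8 and 429 in WT-SOD1, and 290 and 85.5 in nontransgenic cord. Of 7 tested genes in the cerebellar list 0 passed at 110 days, at a median log2 difference of -1.42. The summed intensity of that list was 1095 and 1135 on the 75-day and 110-day G93A-SOD1 arrays. It was 1507 and 3605 on those of WT-SOD1, and 3052 and 2001 on the nontransgenic arrays. The 110-day nontransgenic array thus also lay above both G93A-SOD1 arrays, and part of the cerebellar imbalance stays in any comparison that keeps it. The 110-day WT-SOD1 array and the 75-day nontransgenic array stood apart most in both respects. Without them 1 disease-free array is left per age, which allows no test at one age. G93A-SOD1 was therefore also tested against the 75-day WT-SOD1 and 110-day nontransgenic arrays together, a comparator of mixed age, and the same-age differences are given with no test. The residual spread of that test comes from these 2 disease-free arrays alone, which differ in genotype and age. A smaller p-value there is therefore no stronger result than that of the fit on all arrays. The change between ages was not tested without both arrays. Of 14 measured Hox genes, which mark the cord's position along the body axis, 11 passed the level filter and 0 differed at 110 days. Sod1 read 1738 and 1716 on the G93A-SOD1 arrays, 1583 and 1906 on those of WT-SOD1, and 1037 and 1498 on the nontransgenic arrays, so all transgenic arrays lay above both nontransgenic ones. Whether its mouse probe set reads the transgene's RNA is unknown here.

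The first question was how the members differed in cord of diseased mice at 110 days. Tyrobp, Apbb1ip and Csf1r rose in G93A-SOD1 cord, 5.30-fold, 3.16-fold and 2.58-fold over disease-free cord of the same age. Cx3cr1 was 1.15-fold and did not pass the test. Fcgr2b was dim but highest on this array, and Fcer1g lay on all 6 arrays under the floor chosen here, the 25th percentile of all values. The test was limma across 6739 probe sets with Benjamini-Hochberg adjustment, with the 2 disease-free arrays of an age as one group and the lone G93A-SOD1 array assumed to vary like them. Probe sets entered the test when any array read above the pooled median of 79.6, and 4 of the 6 members did. Apbb1ip did so through the 110-day G93A-SOD1 array alone, where it is high. Of the 3 that read above the median on other arrays too, 2 were called higher, Tyrobp and Csf1r. Of all tested probe sets 1.38% were called higher and 1.51% in either direction. With all 12422 probe sets tested and no filter on level, Tyrobp, Csf1r and Apbb1ip lost the call at unchanged size (limma adjusted p = 0.141, 0.368 and 0.388). In bulk RNA, fewer or more cells of a type and less or more RNA per cell cannot be told apart.

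Tyrobp read 147 and 806 on the 75-day and 110-day G93A-SOD1 arrays, 119 and 164 on those of WT-SOD1, and 115 and 140 on the nontransgenic arrays. The 110-day G93A-SOD1 array lay 4.90-fold above the highest other array, and the other 5 lay between 115 and 164. The log2 difference at 110 days was 2.41 ± 0.15 (moderated SE), with an adjusted p of 0.000979 (limma). It was the sixth largest rise among all tested probe sets. Without the arrays that stood apart, the log2 difference was 2.52 from the 110-day nontransgenic array, with no test, and 2.64 from the comparator of mixed age (limma adjusted p = 4.78e-05).

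Fcer1g, the other ITAM adaptor, has 2 probe sets. The brighter read 17.9 and 29.0 on the G93A-SOD1 arrays, 21.1 and 24.6 on those of WT-SOD1, and 21.7 and 21.5 on the nontransgenic arrays. All 6 values lay below 30.9, the 25th percentile of all values, which served as the floor, and values under the floor have no order. The other probe set read 16.8 to 22.9, under the same floor. No level or difference can be given for Fcer1g, and the identifier of its brighter probe set ends in _f_at, a class that can cross-hybridise.

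Csf1r read 264 and 672 on the 75-day and 110-day G93A-SOD1 arrays, 268 and 248 on those of WT-SOD1, and 213 and 273 on the nontransgenic arrays. The 110-day G93A-SOD1 array lay 2.46-fold above the highest other array, while the 75-day one lay within the disease-free range. The log2 difference at 110 days was 1.37 ± 0.17 SE (limma adjusted p = 0.0106). It was 1.30 from the 110-day nontransgenic array alone and 1.31 from the comparator of mixed age. A second Csf1r probe set read 15.4 to 18.2 on all arrays, under the floor, so no difference can be given for it.

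Apbb1ip read 62.7 and 189 on the G93A-SOD1 arrays, 49.6 and 51.6 on those of WT-SOD1, and 55.9 and 69.8 on the nontransgenic arrays. The 110-day G93A-SOD1 array was the only one above the pooled median, so the gene entered the test through that array. The log2 difference at 110 days was 1.66 ± 0.20 SE (limma adjusted p = 0.00868). It was 1.69 from the comparator of mixed age. Set against the WT-SOD1 array alone the difference was 3.67-fold, and against the nontransgenic array alone 2.71-fold.

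Cx3cr1 read 127 and 166 on the G93A-SOD1 arrays, 141 and 162 on those of WT-SOD1, and 169 and 129 on the nontransgenic arrays. The highest and lowest values belonged to the nontransgenic and G93A-SOD1 arrays of 75 days, and the groups overlapped. The log2 difference at 110 days was 0.20 ± 0.19 SE, with a 95% interval from -0.24 to 0.65 (limma adjusted p = 0.898). In linear terms the interval reached from 0.845-fold to 1.57-fold, which does not reach the rises of Csf1r, Apbb1ip or Tyrobp. Among disease-free arrays Cx3cr1 was highest on the 75-day nontransgenic and the 110-day WT-SOD1 array, the same that carried the higher spike-in and cerebellar signal. With the spike-in level as a covariate its difference was 0.41 (limma adjusted p = 0.131), and from the comparator of mixed age 0.30 (limma adjusted p = 0.506). The part of the array difference in the Cx3cr1 values was otherwise not tested.

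Fcgr2b read 23.9 and 47.3 on the 75-day and 110-day G93A-SOD1 arrays, 15.6 and 22.3 on those of WT-SOD1, and 19.5 and 20.1 on the nontransgenic arrays. Only the 110-day G93A-SOD1 value was above the floor of 30.9. With the other arrays at the floor, it was at least 1.53-fold higher than each of them. The gene did not enter the test, as no array reached the pooled median. Its probe set identifier ends in _s_at, shared between related transcripts, and Fc receptor genes are similar in sequence.

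**Figure D1:**
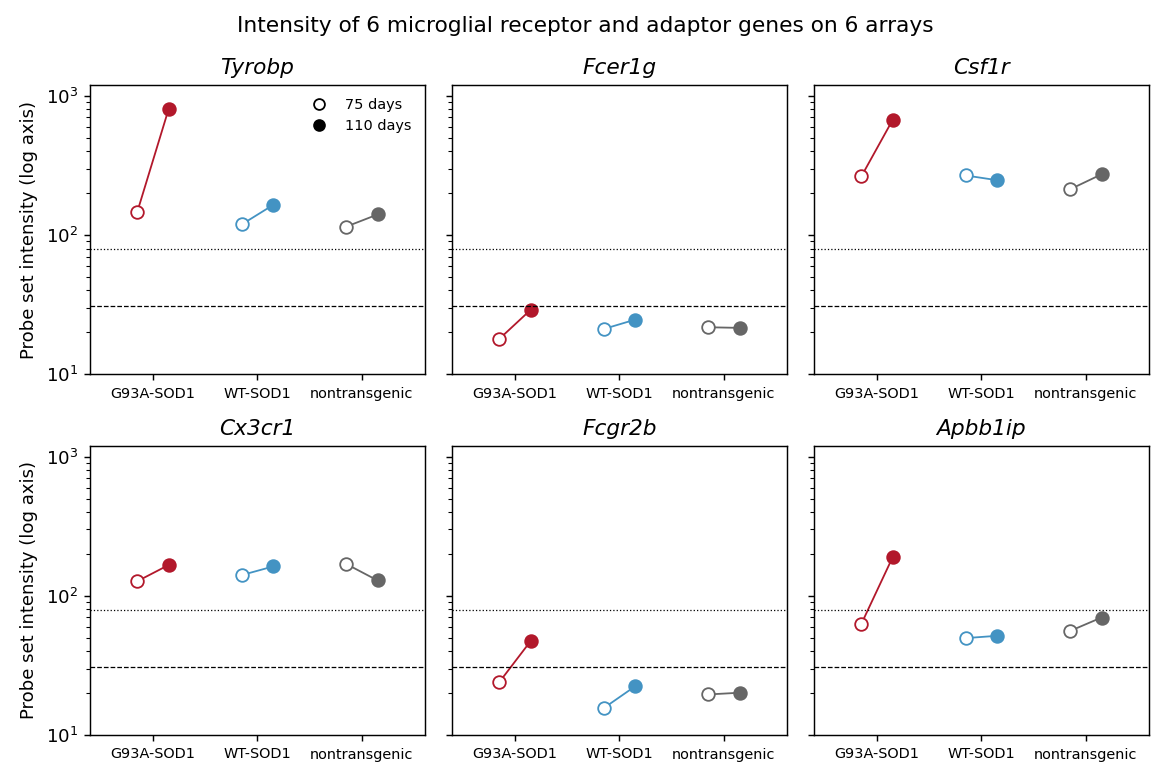
Probe set intensity (log axis) of the 6 genes on each array, by genotype from left to right, with open points for 75 days and filled points for 110 days. The dashed line is the floor of 30.9 and the dotted line the pooled median of 79.6, and Tyrobp, Csf1r and Apbb1ip stand out on the 110-day G93A-SOD1 array at 806, 672 and 189.

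Tyrobp and Csf1r were at least 2-fold above all 5 other arrays on the 110-day G93A-SOD1 array. So was Apbb1ip, whose place among the tested genes rests on that array. Of all tested probe sets 13.6% were highest on that array and 0.92% were so by at least 2-fold. The rises were unequal. The log2 difference of Tyrobp exceeded that of Apbb1ip by 0.75, that of Csf1r by 1.04 and that of Cx3cr1 by 2.20. Apbb1ip and Csf1r lay within 0.29 of each other. These gaps are differences between log2 changes of separate probe sets and were not tested.

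At 75 days, the presymptomatic age, none of the 4 tested members passed. Nor did any of the 6739 probe sets by limma (0% called), although 666 had an unadjusted p under 0.05. Tyrobp was 1.25-fold (log2 difference 0.33 ± 0.15 SE, limma adjusted p = 0.532), above both disease-free arrays of its age at 147 against 119 and 115. That value still lay below the 164 of the WT-SOD1 array at 110 days. Apbb1ip stood at 0.25 ± 0.20 SE and Csf1r at 0.14 ± 0.17 SE (limma adjusted p = 0.701 and 0.822). Cx3cr1 stood at -0.28 ± 0.19 SE (limma adjusted p = 0.653), with its lowest value of all 6 arrays. Csf1r has no settled sign at this age, being -0.024 without the nontransgenic 75-day array and -0.038 from the comparator of mixed age. The 95% intervals allow up to 1.60-fold for Tyrobp, 1.65-fold for Apbb1ip, 1.46-fold for Csf1r and 1.12-fold for Cx3cr1.

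**Figure D2:**
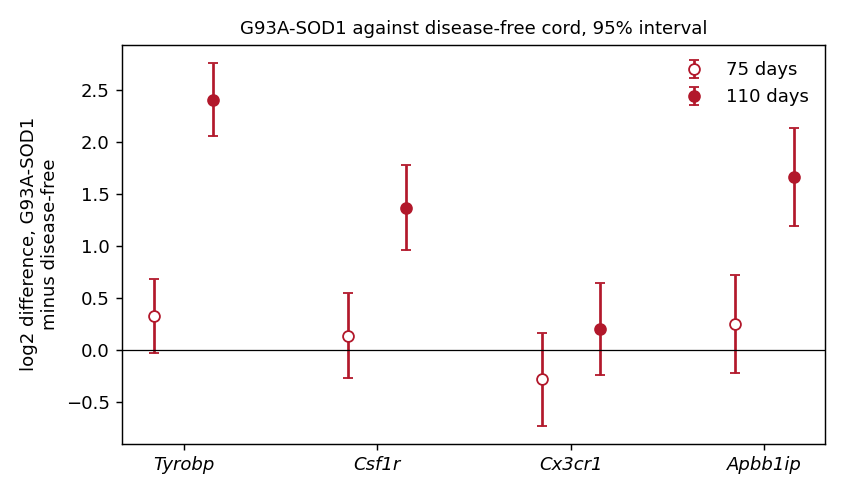
Log2 difference of G93A-SOD1 minus disease-free cord for the 4 tested genes at 75 days (open) and 110 days (filled), with 95% intervals of the moderated fit. At 110 days Tyrobp, Csf1r and Apbb1ip lie above 0 by 2.41, 1.37 and 1.66, while the interval of Cx3cr1 (-0.24 to 0.65) and all intervals at 75 days include 0.

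Whether the G93A-SOD1 difference grew between the ages was tested directly. It grew for Tyrobp, by 2.08 ± 0.21 SE on the log2 scale (limma adjusted p = 0.0214). This was 1 of the 4 tested members, where 0.386% of all tested probe sets were called in that direction and 0.0297% in the other. The call was lost with arrays scaled to 1 median (adjusted p = 0.0671), with a floor at the 40th percentile (adjusted p = 0.0634) and with no filter on level (adjusted p = 0.224), at sizes of 2.05 to 2.08. For Apbb1ip the change was 1.41 ± 0.28 SE (limma adjusted p = 0.152), for Csf1r 1.23 ± 0.25 SE (0.149) and for Cx3cr1 0.48 ± 0.27 SE (0.934). With any 1 of the 4 disease-free arrays left out, 1 age keeps 1 disease-free array, so only sizes are given here. The change was then 1.189 to 1.626 for Apbb1ip and 1.065 to 1.393 for Csf1r. Of the alternatives that kept all arrays, Apbb1ip passed in none that tested it (limma adjusted p from 0.058 to 0.6005). Csf1r passed with the spike-in covariate alone (limma adjusted p = 0.02633), a fit that left 1 residual degree of freedom. It did not pass in the others (limma adjusted p from 0.1065 to 0.5406).

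Within G93A-SOD1 cord Tyrobp was 5.48-fold higher at 110 than at 75 days, Apbb1ip 3.02-fold, Csf1r 2.55-fold and Cx3cr1 1.31-fold. In disease-free cord the same step was small. Tyrobp was 1.38-fold higher at 110 days in WT-SOD1 and 1.22-fold in nontransgenic cord, a log2 difference of 0.38 ± 0.12 SE that failed adjustment (limma unadjusted p = 0.0173, adjusted p = 0.998). Csf1r, Apbb1ip and Cx3cr1 differed between the ages by 0.12, 0.19 and -0.09 (limma adjusted p = 0.998 each). Leaving out 1 nontransgenic array turned the sign for each of these, to -0.042 for Csf1r without the 75-day array, to -0.031 for Apbb1ip without the 110-day array, and for Cx3cr1 to 0.038 without the 75-day and 0.073 without the 110-day array. None of the 4 members was called for age, where 0.0148% of probe sets were.

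The WT-SOD1 transgene was set against no transgene over the 4 disease-free arrays in a fit that also held age and left 1 residual degree of freedom. No member passed, where 0.104% of probe sets did (0.089% higher), and on simulated arrays this fit made false calls more often than its threshold allows. The log2 differences were 0.14 for Tyrobp, 0.09 for Csf1r, 0.03 for Cx3cr1 and -0.30 for Apbb1ip, each ± 0.19 SE (limma adjusted p = 1). Apbb1ip was lower on the WT-SOD1 array at both ages, 49.6 in WT-SOD1 against 55.9 in nontransgenic cord at 75 days and 51.6 in WT-SOD1 against 69.8 in nontransgenic cord at 110 days, a pattern that 15.3% of tested probe sets showed.

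The partners of the members were read from gene lists of the pathways. Of 31 listed ITAM adaptors and receptor partners 17 were on the array and 4 passed the level filter, of which Tyrobp alone rose and 0 fell (median log2 difference 0.25, or -0.01 without Tyrobp). The median over all 5201 tested genes was -0.02. The other 3 tested were the integrin gene Itgax at 0.51 (limma adjusted p = 0.246), and Cd3e and Cd79a of T and B cells at -0.01 and -0.04. Trem2 was not among the genes measured here. Of 10 measured ITIM receptor genes 4 were tested and 0 passed (median 0.23). Cd22 stood at 0.29 and Sirpa at 0.27 (limma adjusted p = 0.559 and 0.615). Of 28 measured kinases and adaptors downstream of ITAMs 18 were tested and 0 passed (median 0.10). Prkcb, a protein kinase C gene, stood at -0.54 and Blnk at 0.42 (limma adjusted p = 0.219 and 0.516). Cd22 and Blnk entered the test through the 110-day G93A-SOD1 array alone, so the ITIM and kinase medians rest partly on such genes. Syk, the kinase that binds phosphorylated ITAMs, read 284 and 268 on the G93A-SOD1 arrays, 252 and 271 on those of WT-SOD1, and 265 and 259 on the nontransgenic arrays, a log2 difference of 0.02 at 110 days (limma adjusted p = 1.00). Of 10 measured phosphatases and other restraints 4 were tested and 0 passed (median 0.07). Inpp5d, the lipid phosphatase SHIP1, stood at 0.28 and Pag1 at -0.16.

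In the list of the CSF1 and fractalkine axes 1 of 9 tested genes rose, Csf1r, and 0 fell (median 0.00, or -0.03 without the members). The ligand Csf1 read 242 and 352 on the G93A-SOD1 arrays, 279 and 238 on those of WT-SOD1, and 244 and 252 on the nontransgenic arrays. Its 110-day G93A-SOD1 value was the highest of the 6, at a log2 difference of 0.53 (limma adjusted p = 0.218). Cx3cl1, encoding fractalkine, stood at -0.11 (limma adjusted p = 0.982), so neither side of that ligand and receptor pair passed. Of 15 tested genes of Rap1, talin and integrins 1 rose, Apbb1ip, and 0 fell (median 0.06), with Tln1, encoding talin, at 0.05. Of 7 tested myeloid transcription factor genes 3 rose and 0 fell (median 0.73), Cebpd 4.89-fold, Cebpb 1.82-fold and Cebpa 1.71-fold. Spi1, encoding PU.1, stood at 0.51 and Irf8 at 0.73 (limma adjusted p = 0.246 and 0.0769). Syk, Csf1, Cx3cl1, Tln1, Spi1 and Irf8 were chosen after their values were seen, for their place in the pathway. Of the genes named here, Apbb1ip, Cebpb and Irf8 entered the test through the 110-day G93A-SOD1 array alone, as did Cd22 and Blnk above. Another tested gene of the Rap1 list, not named, did so too. Such genes weigh on these counts and medians, and the median of 0.73 is the value of Irf8 itself. Of all tested probe sets 1.38% were called higher.

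**Figure D3:**
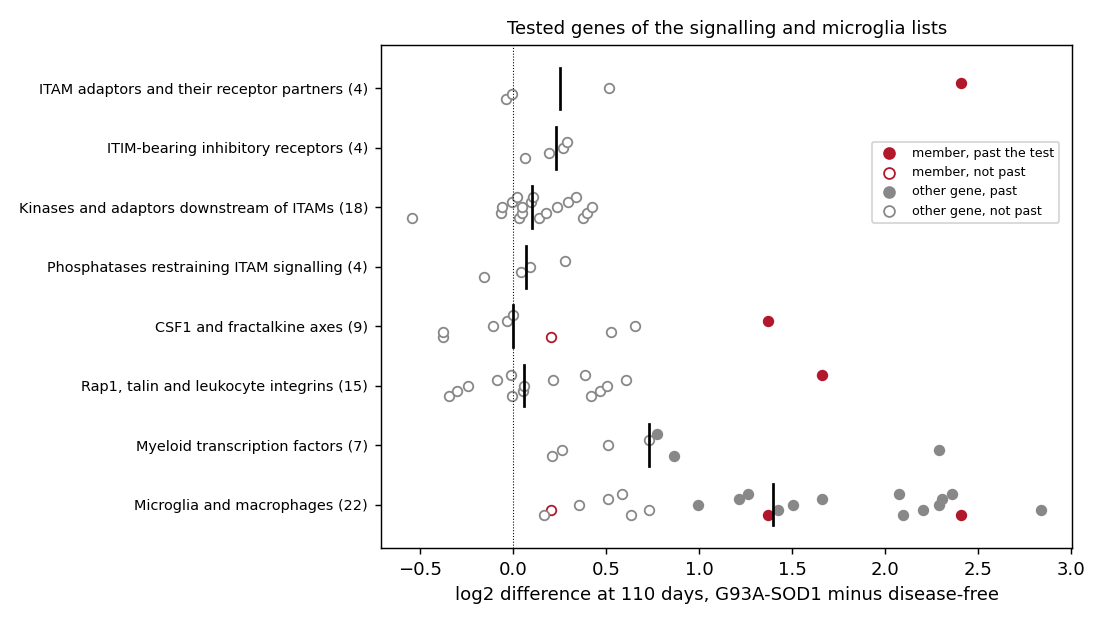
Log2 difference at 110 days (G93A-SOD1 minus disease-free) of each tested gene, by list, with the number tested in brackets; filled points passed the limma test, red points are members and black bars are list medians. Tyrobp, Csf1r and Apbb1ip are the filled points of the lists on ITAM adaptors, CSF1 and Rap1, and the microglia list has a median of 1.40.

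The members were then placed among markers of microglia and macrophages. Of 35 listed genes 29 were measured, 3 lay at or under the floor on all arrays (Ptprc, Fcer1g and Msr1), and 22 were tested. Of these 15 rose and 0 fell at 110 days, with a median of 1.40, or 13 of 19 and a median of 1.42 without the members. Of all tested probe sets 1.38% were called higher. Lyz2, Cd53, Lgals3 and Aif1, among the 15, entered the test through the 110-day G93A-SOD1 array alone, where they are high. So did Irf8 and Adgre1, which did not pass, and the counts, medians and order of this list rest partly on such genes. The summed intensity of the list was 3972 and 12140 on the 75-day and 110-day G93A-SOD1 arrays, 3733 and 4214 on those of WT-SOD1, and 3599 and 4011 on the nontransgenic arrays. The list thus moved with the members, and its part in their rise was not tested. Tyrobp had the second largest difference of the 22, after Lyz2 (lysozyme) at 2.84 and before C1qb at 2.36. Csf1r was twelfth, between Lgals3 at 1.42, whose other arrays lay under the floor so that this value is a lower bound, and Laptm5 at 1.26. Cx3cr1 was next to last, between Lgmn at 0.35 and Slc2a5, a fructose transporter gene, at 0.17, and at 75 days it was also next to last, above Lgmn.

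Markers of other cells that use ITAM signalling did not pass the test. Of 3 tested T and NK cell genes, 5 B cell genes, 4 mast cell and basophil genes and 6 neutrophil genes, 0 passed, with medians of -0.01, -0.04, 0.02 and -0.06. Of 15 measured T and NK cell genes 7 lay at or under the floor on all 6 arrays, among them Cd3g, Cd3d and Cd247. Of 10 measured mast cell and basophil genes 3 did, Ms4a2, Fcer1a and Mcpt4. Other genes of both lists lay above it on all arrays, such as Cd4 at 145 to 185 and the mast cell gene Cpa3 at 80.2 to 140.5. The summed intensity of the T and NK list without Thy1, which neurons also express and which made most of the sum, was 662 and 616 on the G93A-SOD1 arrays, 609 and 642 on those of WT-SOD1, and 639 and 556 on the nontransgenic arrays. That of the mast cell list was 721 to 761 on the G93A-SOD1 arrays and 667 to 754 on the disease-free arrays.

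**Figure D4:**
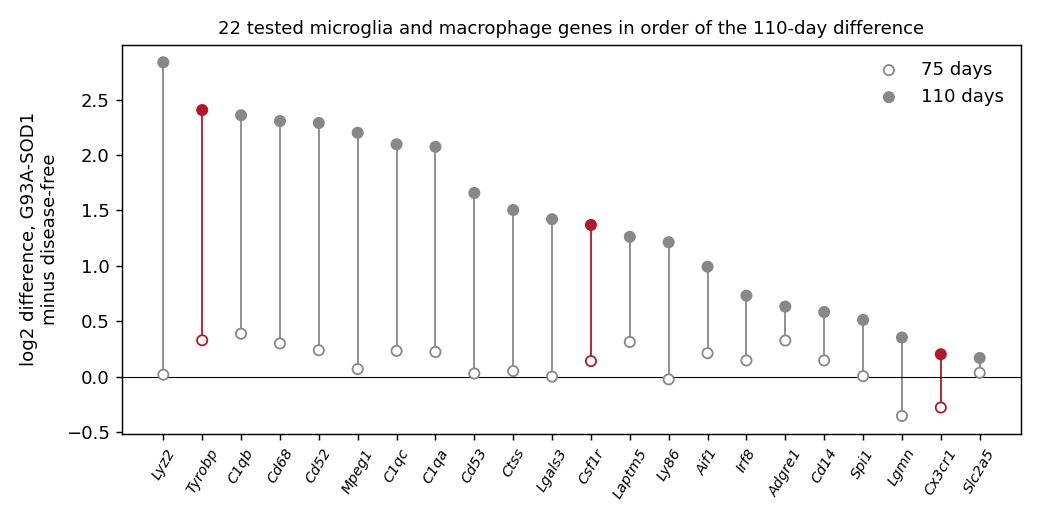
Log2 difference (G93A-SOD1 minus disease-free) of the 22 tested microglia and macrophage genes at 75 days (open) and 110 days (filled), in order of the 110-day value, with members in red. Tyrobp lies second at 2.41, Csf1r twelfth at 1.37 and Cx3cr1 next to last at 0.20.

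The genes most like each rising member over the 6 arrays were found by the root-mean-square difference of log2 values after centring each gene on its own mean, among 5200 other tested genes. For Tyrobp they were C1qb (0.13), Serpina3n (0.14), C1qa (0.16), Cebpd (0.17) and Cd52 (0.17), against a span of 2.81 for Tyrobp itself. For Csf1r they were Pros1 (0.08), Ctsd (0.11), Grn (0.12), Lgals3 (0.12) and Igfbp2 (0.13), with a span of 1.66. Lgals3 lay above the floor on 1 array, so its likeness to Csf1r is set by the floor. Pros1, encoding the plasma protein S, read 57.9 and 135 on the G93A-SOD1 arrays, 57.7 and 52.6 on those of WT-SOD1, and 50.5 and 62.9 on the nontransgenic arrays. As for Csf1r, its WT-SOD1 value was lower and its nontransgenic value higher at 110 than at 75 days, differences that were not tested. For Apbb1ip they were Cd53 (0.12), Igfbp2 (0.17), Grn (0.19), Mylk (0.19) and Ctsd (0.19), with a span of 1.93. The likeness rests mostly on the 110-day G93A-SOD1 array, the point all of them share.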

How the data were processed

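Each genotype and age has 1 Affymetrix array, hybridised once with cRNA from pooled cords, per the labels' protocols. The deposited values are linear intensities per probe set, while for probe summary, scaling and genome build the sources used here give nothing. Since log2 medians of the arrays differed by at most 0.06, no scaling was added, and trimmed means differed up to 1.08-fold. Values were raised to the 25th percentile of all values (30.9) and log2 was taken; of 12488 rows, 66 controls were left out of the tests. The fit used limma 3.58.1 in R 4.3.3 (lmFit, eBayes) with 4 means, 2 residual degrees of freedom and a prior standard deviation of 0.12, and calls at an adjusted p under 0.05. WT-SOD1 was set against nontransgenic in a separate fit of 4 arrays, with 1 pooled spread of 0.19 for every probe set. No genotype and age has a replicate, so p-values rest on how WT-SOD1 and nontransgenic arrays of an age differ, and the number of arrays limits the precision. The script was tested on simulated arrays. The members, lists and motifs were chosen with earlier results of these data known. Named genes are the members, up to 4 calls or 2 values per list, and the 5 genes most like each member that spans at least 1 log2 unit. Genes are also named where a count of 5 or fewer needs its names. Among the markers, Cd3g, Cd3d, Cd247, Laptm5, Lgmn and Slc2a5 are exceptions to it, picked with their values in view, and other exceptions are stated beside their values. Alternatives were 2 floors, 2 filters, 2 scalings, a spike-in covariate, the 4 arrays with lower spike-in levels (disease-free arrays pooled over age), and each disease-free array left out. Symbols came from the platform annotation: 1 symbol for 10833 of 12422 probe sets, several for 396 and none here for 1193, and 10817 matched a RefSeq gene by Entrez identifier with 0 changed.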

Additional observations from a re-analysis of the deposited data

Results flagged for a closer look

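The G93A-SOD1 difference of Tyrobp differed between the ages by 2.08 on the log2 scale, being 0.33 at 75 days and 2.41 at 110 days, by the test of that change itself (limma adjusted p = 0.0214). Intensity was 147 and 806 on the 75-day and 110-day G93A-SOD1 arrays, against 115 to 164 on the disease-free arrays. The difference rests on 1 array, since each genotype and age was hybridised once. The summed intensity of the microglia list moved with it, at 12140 on that array and 3972 on the 75-day G93A-SOD1 array, and its part in the result was not tested.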

How the results depend on the processing

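No paired analysis was possible because each genotype and age has 1 array. Tyrobp, Csf1r and Apbb1ip kept their direction at 110 days in all alternatives with a fit (log2 2.29 to 2.64, 1.21 to 1.44 and 1.44 to 1.88) and lost the call with no filter on level (adjusted p = 0.141, 0.368 and 0.388); the cause was not tested. With no filter Fcgr2b alone among the members was called (1 member against 3), on a spread of 0 that its floored disease-free values make by construction. Its log2 difference was 0.61 as reported, 1.16 with a floor at 16 and 0 with a floor at the 40th percentile. With the filter on mean level Apbb1ip was not tested. The dimmer Csf1r probe set gave 0, which the floor fixes by construction. The 102 calls at 110 days became 66 with the 40th percentile floor, 42 with no filter, 64 with the mean filter, 237 with the spike-in covariate, and 148 to 592 with 1 array left out (592 without the 110-day WT-SOD1 array). The 0 calls at 75 days became 50 with no filter and 13 to 124 with 1 array left out. The 28 calls for the change between ages became 3 with the 40th percentile floor, 77 with no filter, 11 with the mean filter, 2 with 1 median, 75 with the spike-in covariate and 51 to 135 with 1 array left out. Among them were 0 members with that floor and with 1 median and 2 with the covariate, against 1 as reported. Members are not counted here with 1 array left out, as 1 age then keeps 1 disease-free array. The 1 call for age became 0 with no filter, 4 with the covariate and 2 to 17 with 1 array left out. The 7 calls for WT-SOD1 became 0 with the 40th percentile floor, no filter, 1 median and quantile normalization, and that fit has no residual degrees of freedom with 1 array left out. The 6 rising genes of the 7 signalling lists became 2 with no filter, 3 with the mean filter, 10 with the covariate and 6 to 12 with 1 array left out. Signs turned only for values that were not called. The Csf1r difference at 75 days was -0.038 on the 4 arrays with lower spike-in levels. That setting pools disease-free arrays over age, so it was not run for age or for the change between ages. With 1 array left out (leave-one-out), the Csf1r difference at 75 days ran between -0.024 and 0.30. The age difference of Csf1r ran between -0.042 and 0.29, that of Cx3cr1 between -0.26 and 0.073, and that of Apbb1ip between -0.031 and 0.41. Signal near the floor limits what can be seen of Fcer1g and Fcgr2b.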

Other observations

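Of 51 genes of the 7 signalling lists too dim for the test, members left out, 30 lay above the floor on at least 1 array, and 13 of these (43.3%) were highest on the 110-day G93A-SOD1 array. Among all 1835 such dim genes with 1 symbol the share was 14.2%, and the difference was not tested. The lists were chosen with earlier results known. Itgb2, the beta chain of leukocyte integrins that Apbb1ip helps to activate, read 21.6 and 53.3 on the 75-day and 110-day G93A-SOD1 arrays, 23.4 and 22.2 on those of WT-SOD1, and 23.5 and 22.6 on the nontransgenic arrays. Of these, the 53.3 alone lay above the floor of 30.9. The Fc receptor gene Fcgr1 read 54.8 and 69.0 on the G93A-SOD1 arrays, 49.3 and 52.9 on those of WT-SOD1, and 54.7 and 50.2 on the nontransgenic arrays. Fcgr3, a further activating Fc receptor gene, read 41.4 and 45.9 in G93A-SOD1, 36.5 and 40.8 in WT-SOD1, and 38.1 and 35.5 in nontransgenic cord. Each of these 3 genes was chosen after its values were seen, and none was tested.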
